A study of Mus musculus with 10 samples.

Results

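Imprinted genes are transcribed mainly from 1 parental allele. The values of 10 of them were taken from the count table of muscle stem cells (MuSCs, the Pax7-expressing stem cells that rebuild muscle fibres). They were chosen by symbol, and all 10 were found among the 24608 symbols of the table. H19, Meg3, Rian, Grb10 and Gnas were described as the 5 maternally expressed genes, and Dlk1, Peg3, Plagl1, Ndn and Mest as the 5 paternally expressed genes. The study asked what loss of Trpm7, a channel that conducts magnesium and also holds a kinase domain, does to MuSCs in regenerating muscle. Adult, age-matched C57BL6 mice of both sexes were used. Control mice carried Trpm7+/+, Pax7 CreERT2/+ and the Rosa26 YFP reporter. Trpm7 cKO mice carried Trpm7 flox/flox with the same Cre and reporter. Tamoxifen was given to both genotypes and switches on Cre only in cells that express Pax7, so the deletion is acquired in adult MuSCs. Tibialis anterior muscle was injured with cardiotoxin. YFP+ cells were sorted 3 days after the injury, 3000 cells a library, giving 5 control and 5 Trpm7 cKO libraries.

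Imprints are laid down in the germ line as DNA methylation at control regions, and the allele that is expressed follows from the parent it came from. Many imprinted genes act on growth: genes expressed from the paternal allele often promote it, and genes expressed from the maternal allele often restrain it. In skeletal muscle several of these genes are high in the embryo and in proliferating myoblasts, and H19 and the Dlk1-Dio3 cluster are known from MuSC biology. Grb10 is maternally expressed in most tissues and paternally in neurons. The main product of Gnas comes from both alleles in most tissues and from the maternal allele in some. The counts carry no information on alleles, so which allele was transcribed was not measured here.

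Control libraries held from 914353 to 1097707 counts each, Trpm7 cKO libraries from 205980 to 581117, so every Trpm7 cKO library was shallower than every control library. Levels are given as CPM, the counts of a gene for every 1000000 counts of the tested genes, after trimmed-mean (TMM) normalisation. The method counts 1 tag at the 3′ end of each transcript, so CPM needs no correction for length between genes. Overlap with other annotated genes can still change the count of a gene, as given below for Gnas, Meg3, Ndn and Mest. Trpm7 itself did not pass the test (log2 fold change -0.09 ± 0.20 SE, adjusted p = 0.723). The tags count 3′ ends and which exon is deleted is not given in the sources used here, so this does not check the deletion. The study reported the deletion by other means: Trpm7 mRNA in freshly isolated MuSCs, PCR, and TRPM7 staining of MuSCs on myofibres. Pax7 was found in every library, at a mean of 206 CPM in control and 474 in Trpm7 cKO. The summed level of 15 MuSC markers ranged from 2535 to 2987 CPM in control and from 2553 to 4509 in Trpm7 cKO. Of 14 tested, 8 were higher and 2 lower at an adjusted p below 0.05. Beside this count and those of the marker lists that follow, 24.6% of all 7753 genes tested were higher and 24.1% lower. Markers of other cell types also differed. All 17 tested leukocyte markers of 25 were higher in Trpm7 cKO (summed level 389 to 654 CPM in control and 1452 to 6495 in Trpm7 cKO), with Cd3e, Cd79a and Nkg7 at 0 in every control library. All 4 tested endothelial markers of 12 were higher (7.51 to 82.2 and 153 to 800 CPM), as were 3 of 3 tested mural markers of 8 (604 to 953 and 1224 to 1768 CPM). Of 8 tested fibroadipogenic markers of 14, 6 were higher and 1 lower (2859 to 4736 and 3519 to 6371 CPM), with Pi16 at 0 in every control library. A gene was tested if enough libraries held enough counts, and the Trpm7 cKO libraries alone could suffice. Markers low in control were thus tested because they were high in Trpm7 cKO, and their fall could not have been found. The summed levels cover every marker of a list, tested or not. The part of these other cell types in the values of the imprinted genes was not tested. In a bulk library fewer cells of a type and less RNA per cell cannot be told apart.

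Of the members, 4 host microRNAs. RefSeq places 13 mature microRNAs inside H19, Meg3, Rian and Mest, on the strand of the host. All are shown, since these hosts differ in level between the genotypes below. The sequences are from RefSeq (GRCm38.p6), 5′ to 3′, with the seed (bases 2 to 8) in capitals. H19 holds a pair in an exon on chromosome 7, at 142577112-142577133 (5p) and 142577078-142577099 (3p), minus strand.
miR-675-5p: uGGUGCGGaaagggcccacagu
miR-675-3p: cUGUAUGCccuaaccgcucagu
Meg3 holds 3, each inside an annotated Meg3 exon, on chromosome 12 at 109544588-109544609 (miR-1906), 109563710-109563731 (miR-770-5p) and 109563744-109563765 (miR-770-3p), plus strand.
miR-1906: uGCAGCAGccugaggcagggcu
miR-770-5p: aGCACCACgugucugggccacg
miR-770-3p: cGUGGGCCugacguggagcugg
Rian holds 6, outside its annotated exons, on chromosome 12 between 109611521 and 109618326, plus strand.
miR-341-5p: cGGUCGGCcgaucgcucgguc
miR-341-3p: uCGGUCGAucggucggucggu
miR-1188-5p: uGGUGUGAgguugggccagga
miR-1188-3p: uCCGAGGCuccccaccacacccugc
miR-370-5p: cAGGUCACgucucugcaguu
miR-370-3p: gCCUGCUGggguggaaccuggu
Mest holds a pair in an intron on chromosome 6 at 30741314-30741336 (5p) and 30741354-30741375 (3p), plus strand.
miR-335-5p: uCAAGAGCaauaacgaaaaaugu
miR-335-3p: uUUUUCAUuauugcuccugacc
All 13 seeds are different. The libraries capture polyadenylated 3′ ends, so they hold values for the host RNAs and none for the mature microRNAs.

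Of the 10 imprinted genes, 8 had enough counts to be tested, and Dlk1 and Mest did not. In Trpm7 cKO 3 of the 8 were higher (Meg3, Rian and Plagl1) at an adjusted p below 0.05, beside 24.6% of all 7753 genes tested. Another 3 were lower (H19, Grb10 and Peg3), beside 24.1% of all genes. Gnas and Ndn did not pass. With a log2 fold change beyond 1.5 as well, 2 of the 8 were higher (Meg3 and Rian, beside 8.49% of all genes) and 1 was lower (H19, beside 3.53%). Rian passed the filter on low counts through its Trpm7 cKO libraries. In control it had 24 counts in replicate 2 and 7 to 10 in the others, so a fall of Rian could not have been found. CPM of the 5 control libraries did not overlap with CPM of the 5 Trpm7 cKO libraries for H19, Meg3, Rian, Grb10 and Peg3, beside 34.5% of all genes tested. Both directions therefore occurred among both parental classes. The maternally expressed members had 2 higher and 2 lower of 5 tested, with a median log2 fold change of 0.89. The paternally expressed members had 1 higher and 1 lower of 3 tested, with a median of 0.55, and the median of all genes tested was -0.01. The medians of the members are the values of Gnas and of Ndn, which did not pass, so they show no shift of either class.

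**Figure D1:**
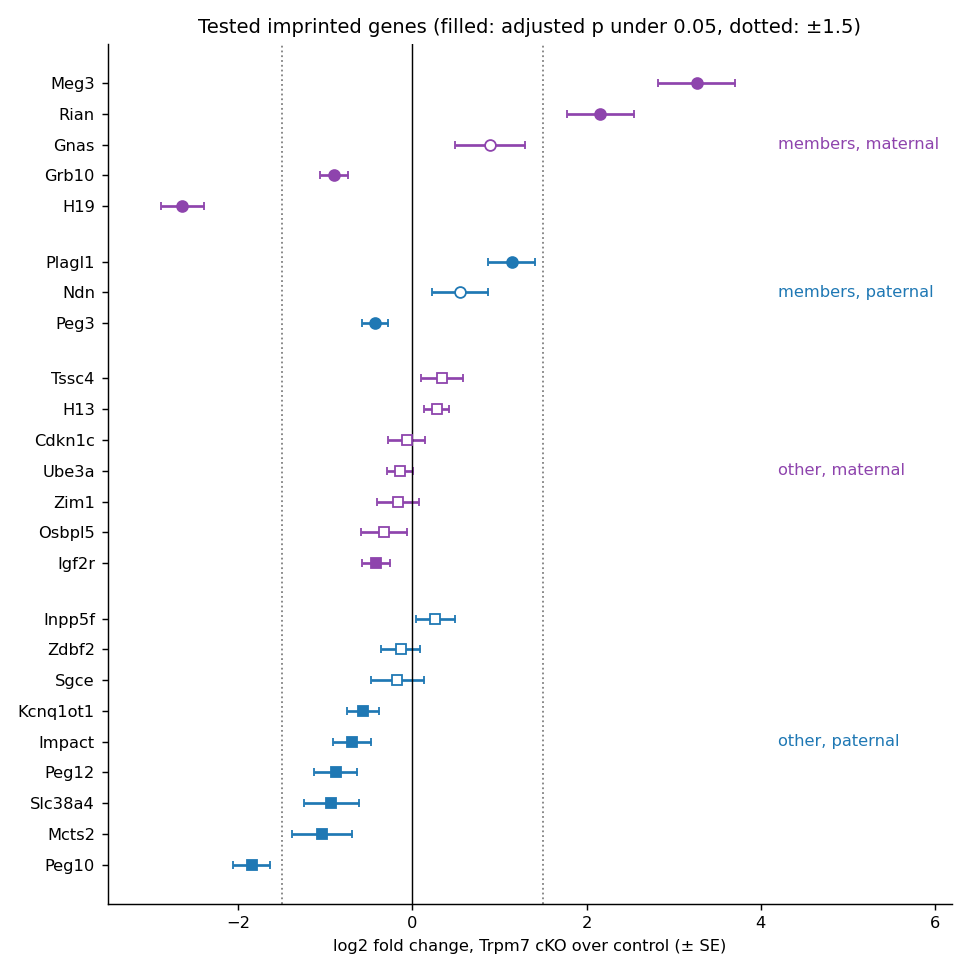
Log2 fold change of Trpm7 cKO over control (x axis, ± SE from edgeR) for every tested imprinted gene, members as circles and other imprinted genes as squares, maternally expressed in purple and paternally expressed in blue; filled symbols passed an adjusted p of 0.05 and dotted lines mark 1.5 in either direction. Meg3 (3.26) and H19 (-2.64) stand at the ends of the plot, and among the other imprinted genes Peg10 (-1.84) is past a dotted line.

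H19, a maternally expressed long non-coding RNA (chromosome 7, 142575529-142578143, minus strand, GRCm38), fell most among the tested members. In the 5 control libraries it stood at 437, 282, 459, 611 and 259 CPM. In the 5 Trpm7 cKO libraries it stood at 79.5, 82.8, 47.5, 58.0 and 44.1 CPM. The lowest control library was thus more than 3 times the highest Trpm7 cKO library. H19 means were 410 ± 144 CPM in control and 62.4 ± 17.9 in Trpm7 cKO (SD, n = 5 each), a 6.25-fold lower fitted level (log2 fold change -2.64 ± 0.25 SE, adjusted p = 1.89e-07). The library counts themselves ran from 224 to 609 in control and from 8 to 45 in Trpm7 cKO. Igf2, the paternally expressed growth factor next to H19, had 2 counts over all control libraries and 3 over all Trpm7 cKO libraries. A difference in Igf2 was not detectable at this depth.

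Meg3 moved the other way. Meg3 is a maternally expressed long non-coding RNA of the Dlk1-Dio3 cluster (chromosome 12, 109541001-109571726, plus strand). Control libraries held 23.9, 90.9, 45.0, 52.2 and 81.0 CPM. Trpm7 cKO libraries held 469, 412, 643, 273 and 1098 CPM, so the lowest of them was 3 times the highest control library. Means were 58.6 ± 27.3 and 579 ± 319 CPM (SD, n = 5 each). The fitted level was 9.60-fold higher in Trpm7 cKO (log2 fold change 3.26 ± 0.44 SE, adjusted p = 1.21e-04). The difference is visible before any normalisation. Every control library had 24 to 88 Meg3 counts, and every Trpm7 cKO library had 165 to 254 although it was shallower. The Trpm7 cKO libraries differed 4-fold among themselves, with the highest value in the shallowest library, replicate 5. Without the 2 shallowest libraries, Trpm7 cKO replicates 3 and 5, a choice made after the data were seen, the log2 fold change was 2.72 (adjusted p = 1.97e-04).

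Rian, which hosts small nucleolar RNAs, follows Meg3 in the cluster (chromosome 12, 109603940-109661716, plus strand) and is also maternally expressed. It had 6.96, 24.8, 10.7, 9.035 and 10.4 CPM in control. In Trpm7 cKO it had 37.0, 62.6, 47.5, 36.5 and 132 CPM. The groups did not overlap, and control replicate 2 and Trpm7 cKO replicate 5 stood above the rest of their group. Rian rose by 2.16 ± 0.38 on the log2 scale (SE, adjusted p = 1.49e-04). Mirg, a further maternally expressed RNA of the cluster, was below the filter on low counts. It had 4 to 9 counts a library in control, 25 in all, and 6 to 20 in Trpm7 cKO, 58 in all. The ratio of normalised counts was 5.16 (95% exact interval 3.18 to 8.61, counting error only). Meg3 counts per Rian count ranged from 3.43 to 7.78 in control and from 6.59 to 13.5 in Trpm7 cKO, with overlap between the genotypes. Of the paternally expressed genes of the cluster, Rtl1 and Dio3 had 1 count each over all 10 libraries. Dlk1 is given with the paternally expressed members.

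**Figure D2:**
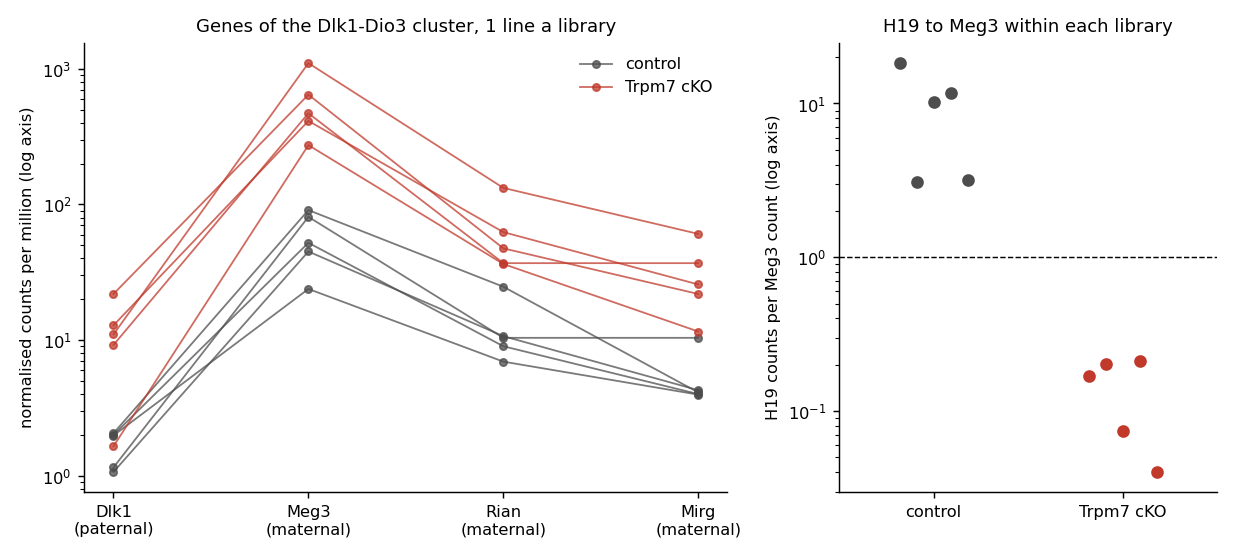
Left, CPM (log axis) of 4 genes of the Dlk1-Dio3 cluster, 1 line for each of the 5 control (grey) and 5 Trpm7 cKO (red) libraries; the lines are apart at Meg3, Rian and Mirg and meet at Dlk1, where 1 Trpm7 cKO library lies among the controls. Right, H19 counts per Meg3 count in each library (log axis, dashed line at 1), from 3.10 to 18.3 in control and from 0.0402 to 0.212 in Trpm7 cKO.

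The ratio of H19 to Meg3 within a library does not depend on how libraries are scaled. In control it was 18.3, 3.10, 10.2, 11.7 and 3.20 H19 counts per Meg3 count. In Trpm7 cKO it was 0.169, 0.201, 0.0739, 0.212 and 0.0402. H19 was the more abundant RNA of the pair in every control library, and Meg3 in every Trpm7 cKO library. The pair holds the tested members with the largest fall and the largest rise, so a change of their ratio follows from the values above. The sum over the 5 maternally expressed members, in which H19 and Grb10 fell and Meg3 and Rian rose, was 926 ± 157 CPM in control and 967 ± 328 in Trpm7 cKO (SD, n = 5 each).

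Grb10, a maternally expressed adaptor that dampens insulin and growth factor receptor signalling (chromosome 11, 11930508-12038683, minus strand), fell. Its control values were 441, 372, 488, 454 and 389 CPM. Its Trpm7 cKO values were 292, 254, 201, 229 and 144 CPM. No Trpm7 cKO library reached the lowest control library. The SD was 47.7 CPM in control, 11.1% of the mean, and 56.0 CPM in Trpm7 cKO, 25.0% of the mean (n = 5 each). Its log2 fold change was -0.90 ± 0.16 (SE), 1.87-fold lower (adjusted p = 1.11e-04).

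Gnas, which encodes the stimulatory G protein alpha subunit (chromosome 2, 174284320-174346744, plus strand), had 8.95, 25.8, 13.9, 13.1 and 22 CPM in control. In Trpm7 cKO it had 24.0, 23.9, 51.2, 13.3 and 77.3 CPM. The groups overlapped, and the 2 highest values came from the 2 shallowest libraries, where 14 counts each lie behind them. The log2 fold change was 0.89 ± 0.40 (SE) and did not pass (adjusted p = 0.0743). It was 0.28 without those libraries (adjusted p = 0.582) and -0.35 when counts were compared per sorted cell. Values per sorted cell, here and below, are not corrected for library depth. The 3′ end of Gnas overlaps the opposite-strand gene Gm20721. The sources used here do not say whether counting used strand, so reads of the pair cannot be told apart. The same holds for Meg3 with Gm26906, Ndn with Gm32061 and Mest with Copg2.

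Peg3 is a paternally expressed zinc finger gene (chromosome 7, 6703892-6730431, minus strand) and marks adult stem cells of several tissues. It was the most abundant member in control by mean level, at 539, 565, 697, 564 and 622 CPM. In Trpm7 cKO it stood at 525, 449, 460, 313 and 486 CPM. The groups were apart by a narrow margin, since the highest Trpm7 cKO library was just under the lowest control library. The log2 fold change was -0.43 ± 0.15 (SE), 1.34-fold lower (adjusted p = 0.0222). Leaving out control replicate 3 or 5 brought the adjusted p to 0.0620 and 0.0513, and scaling on total counts alone brought it to 0.0652.

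Plagl1 (Zac1), a paternally expressed zinc finger transcription factor that restrains the cell cycle (chromosome 10, 13060504-13131694, plus strand), rose. Control libraries had 49.7, 53.7, 81.5, 64.2 and 67.1 CPM. Trpm7 cKO libraries had 248, 149, 113, 72.9 and 93.8 CPM. Replicate 4 of Trpm7 cKO lay inside the control range, and replicate 1 was more than 3 times the highest control. On the log2 scale the change was 1.14 ± 0.27 (SE), 2.21-fold higher (adjusted p = 0.00223). With libraries scaled on MuSC markers it was 0.48 and did not pass (adjusted p = 0.101), and per sorted cell it was 0.03 (adjusted p = 0.939). Plagl1 counts per Peg3 count, which no scaling changes, ran from 0.0923 to 0.117 in control and from 0.193 to 0.472 in Trpm7 cKO without overlap. Peg3 itself was lower in Trpm7 cKO with TMM, with MuSC marker scaling and per sorted cell. The ratio therefore cannot tell a rise of Plagl1 from a fall of Peg3, and it shows only that the 2 genes changed relative to each other. Without Trpm7 cKO replicate 1 the log2 fold change of Plagl1 was 0.76 and still passed.

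Ndn (necdin, a paternally expressed MAGE family gene on chromosome 7, 62346569-62350262, plus strand) had 9.94, 7.23, 17.2, 18.1 and 12.7 CPM in control. It had 20.3, 20.2, 10.96, 18.2 and 27.6 CPM in Trpm7 cKO. The ranges overlapped, with 3 to 18 counts a library. The log2 fold change of 0.55 ± 0.32 (SE) did not pass (adjusted p = 0.163), and it changed sign to -0.01 with MuSC marker scaling and to -0.59 per sorted cell.

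Dlk1, the paternally expressed transmembrane Notch-family ligand of the cluster that holds Meg3 (chromosome 12, 109452823-109463336, plus strand), was nearly absent. It had 2, 2, 1, 2 and 1 counts in control and 5, 7, 6, 1 and 2 counts in Trpm7 cKO. In 4 of 5 Trpm7 cKO libraries its level, 9.24 to 21.9 CPM, was above every control library (1.07 to 2.07 CPM), and replicate 4 at 1.66 CPM was not. From 8 and 21 counts in all, the ratio of normalised counts was 5.84 (95% exact interval 2.48 to 15.2, counting error only). An exact two-sided permutation test over all divisions of the libraries gave p = 0.0317, where the smallest possible value is 0.00794. The same exact test gave p = 0.143 per sorted cell and p = 0.0714 without the 2 shallowest libraries.

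Mest (Peg1), a paternally expressed gene of the alpha/beta hydrolase fold (chromosome 6, 30723547-30748465, plus strand), fell. Its counts were 21, 9, 24, 36 and 15 in control and 1, 2, 3, 2 and 0 in Trpm7 cKO. On the CPM scale Trpm7 cKO replicate 3, at 10.96 CPM from 3 counts, was above control replicate 2 at 9.29 CPM, and the other 4 Trpm7 cKO libraries were below every control library. With 105 and 8 counts in all, the normalised level was 5.90-fold lower in Trpm7 cKO (95% exact interval 2.89 to 14.0, counting error only). The exact two-sided permutation test gave p = 0.0159. This test was computed for 58 genes in all, of which Dlk1 and Mest are given here, and its p-values are unadjusted. Without the filter on low counts, edgeR gave a log2 fold change of -2.68 for Mest (adjusted p = 1.15e-07) and 2.29 for Dlk1 (adjusted p = 0.00204). Copg2, which overlaps the 3′ end of Mest on the other strand, had 22 counts in control and 9 in Trpm7 cKO, a ratio of 0.910 (95% exact interval 0.369 to 2.06).

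**Figure D3:**
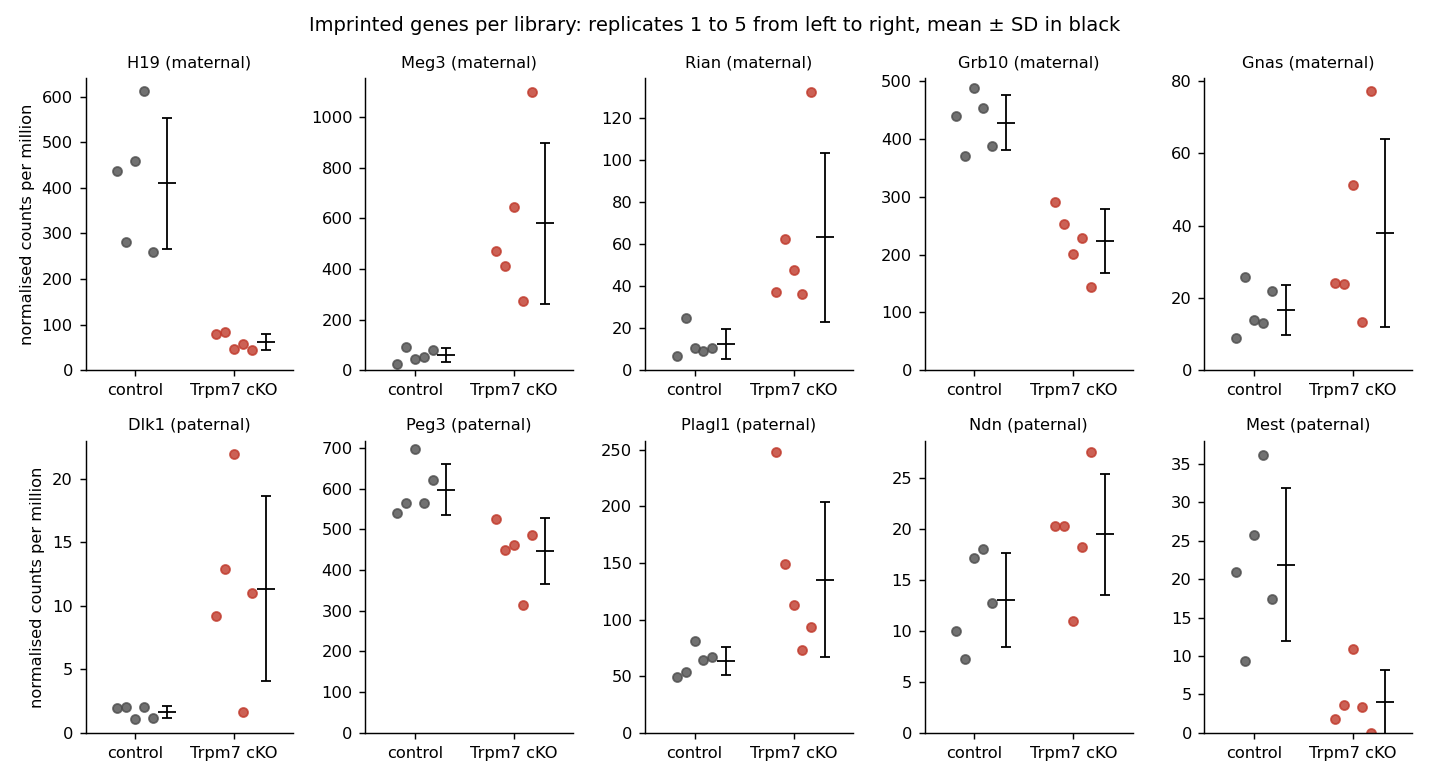
CPM (y axes, from 0) of the 10 imprinted genes in each library, maternally expressed genes above and paternally expressed genes below; points are replicates 1 to 5 from left to right and black bars the mean ± SD of 5 libraries (the lower bar of Mest in Trpm7 cKO runs past 0). H19, Grb10 and Peg3 are lower, and Meg3 and Rian higher, in every Trpm7 cKO library than in every control library.

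The order of the members changed between genotypes. Meg3, Gnas, Ndn and Mest overlap opposite-strand genes at their 3′ ends, so their places rest on counts that this overlap may have changed. In control, Peg3 (597 CPM) led by mean, followed by Grb10 (429) and H19 (410). The range of H19 overlapped with those of Grb10 and Peg3, and in control replicate 4 H19 (611) was above Peg3 (564). These 3 members were apart from the rest. Plagl1 (63.3) and Meg3 (58.6) came next with overlapping ranges. Neighbours from Meg3 down to Rian also overlapped: Mest (21.9), Gnas (16.8), Ndn (13.03) and Rian (12.4). Dlk1 (1.66) was below all of them. In Trpm7 cKO, Meg3 (579) and Peg3 (447) led with overlapping ranges, and Grb10 (224) was below Peg3 in every library. From Grb10 downwards each member overlapped with the next: Plagl1 (135), Rian (63.2), H19 (62.4), Gnas (37.9), Ndn (19.5), Dlk1 (11.3) and Mest (3.96). Among all genes tested Meg3 went from the 58.85 to the 97.16 percentile of mean level, and H19 from the 95.31 to the 59.95 percentile. The summed level of the 5 paternally expressed members was 697 ± 80.2 CPM in control and 617 ± 140 in Trpm7 cKO (SD, n = 5 each), with Peg3 as its largest part.

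**Figure D4:**
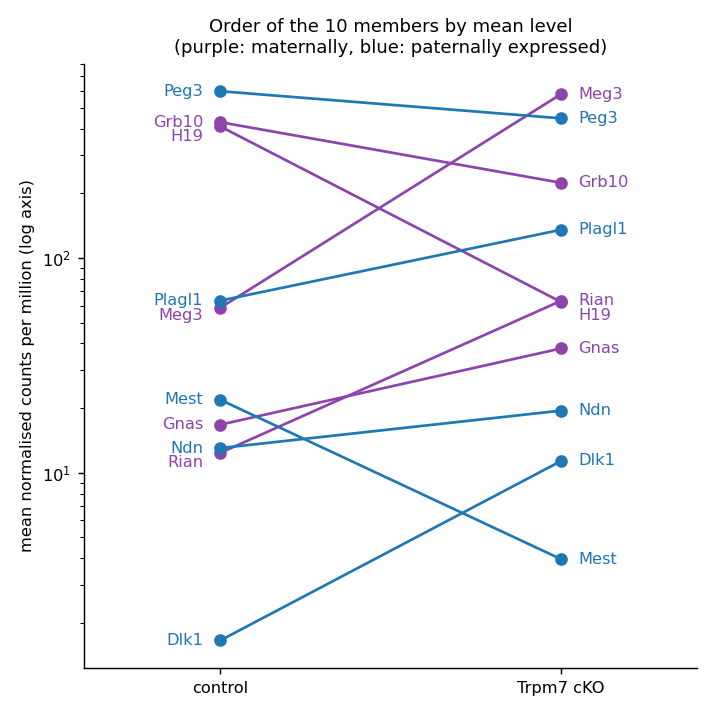
Mean CPM (log axis) of the 10 members in control (left) and Trpm7 cKO (right), 1 line a gene, maternally expressed in purple and paternally expressed in blue, labels moved apart where they would overlap. The lines of H19 (410 to 62.4) and Meg3 (58.6 to 579) cross.

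Other imprinted genes were counted by the same classes. The class of each gene was taken as listed, and which allele MuSCs transcribe was not measured. Of 15 maternally expressed genes, 7 were tested. None was higher, beside 24.6% of all genes tested, and 1 was lower, beside 24.1%: Igf2r, the receptor that clears IGF2 (log2 fold change -0.42 ± 0.16 SE, adjusted p = 0.0341). The median of the 7 was -0.14. The most abundant of the others did not pass: Ube3a, a ubiquitin ligase, had a log2 fold change of -0.14, and H13, a signal peptide peptidase, had 0.28. Cdkn1c, the cell cycle inhibitor p57, had -0.07, and Osbpl5 had -0.33. Of 23 paternally expressed genes in the table, 9 were tested, none was higher and 6 were lower, beside the same shares of all genes, with a median of -0.70 beside -0.01 for all genes. Their summed level over all 23 was 547 to 628 CPM in control and 338 to 455 in Trpm7 cKO, without overlap. Peg10, a gene derived from a retrotransposon, was the one past both thresholds. It stood at 78.6, 78.5, 101, 79.3 and 94.9 CPM in control and at 18.5, 20.2, 18.3, 29.8 and 38.6 CPM in Trpm7 cKO (log2 fold change -1.84 ± 0.21 SE, adjusted p = 1.04e-06). Kcnq1ot1, the non-coding RNA of the Kcnq1 cluster, fell by 0.57 on the log2 scale (adjusted p = 0.0147), and Impact, a regulator of translation, fell by 0.70 (adjusted p = 0.0123). Zdbf2 (-0.13) and Sgce (-0.17), also among the most abundant, did not pass.

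Another 8 maternally and 14 paternally expressed genes of these lists were below the filter on low counts. Those whose ratio of normalised counts had a 95% exact interval (counting error only) that did not hold 1 are named here, a choice made after their values were seen. Among the paternally expressed, 3 had a ratio above 1 and 2 a ratio below 1. Snrpn, a splicing protein gene, had 5 to 9 counts in every control library and 2 in all over the Trpm7 cKO libraries, a ratio of 0.120 (interval 0.0140 to 0.466). Usp29, the neighbour of Peg3, had 8 to 13 counts in control and 0 to 3 in Trpm7 cKO (ratio 0.273, interval 0.105 to 0.60). Nap1l5 had 0 to 6 and 3 to 5 counts (ratio 3.64, interval 1.63 to 8.53). Airn, the non-coding RNA antisense to Igf2r, had 5 to 11 and 2 to 18 counts (ratio 2.28, interval 1.45 to 3.59), and Peg13 had 1 to 5 and 1 to 7 (ratio 2.78, interval 1.37 to 5.74). Among the maternally expressed it was Mirg and Ascl2, the latter with 3 and 7 counts in all (ratio 5.19, interval 1.18 to 31.1). The low genes thus had ratios on both sides of 1, and the intervals do not cover the spread between libraries.

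The genes that keep imprints in place were examined as a list of 8. Of 6 tested, 3 were lower in Trpm7 cKO, beside 24.1% of all genes tested, and none was higher, beside 24.6%. Trim28, the corepressor that zinc finger proteins bring to imprinted regions, went from 554 ± 53.8 to 230 ± 48.0 CPM (SD, n = 5 each), without overlap (log2 fold change -1.25 ± 0.15 SE, adjusted p = 1.65e-06). Dnmt1, the maintenance DNA methyltransferase, had a log2 fold change of -0.75 ± 0.17 (SE, adjusted p = 0.00146). Setdb1, which methylates histone H3 at lysine 9, had -0.79 ± 0.20 (SE, adjusted p = 0.00235). Zfp445, Uhrf1 and Ctcf did not pass, with log2 fold changes of 0.11, -0.06 and 0.32. Zfp57 had 1 count in all and Dppa3 had 6. DNA methylation was not measured in these samples.

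The genes with the profile most like each member over the 10 libraries were found by the root mean square distance of log2 CPM centred on each gene's mean. For H19 they were Sh3rf1 (distance 0.281) and Psat1 (0.286). Meg3 was near to Hmcn2 (0.287). For Rian they were Slc10a6 (0.305) and Plxnd1 (0.316), and for Grb10 Psmb2 (0.0911) and Cbfb (0.112). Gnas was nearest to Gm9104 (0.249) and Gm38394 (0.269), and Peg3 to Pfdn4 (0.113) and P3h1 (0.157). Plagl1 was nearest to Zfp36l1 (0.210) and Mdfic (0.215), and Ndn was near to Dguok (0.191). None of these 14 genes is a member. The member nearest to Meg3 was Rian at 0.717, at rank 113 among all genes tested. All profiles share the libraries, their depth and the difference between genotypes.

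The scaling of the libraries mattered for the smaller differences. With MuSC marker scaling the median over all genes shifted to -0.55 (log2), with 828 genes higher and 3271 lower, beside 1908 and 1866 with TMM. With counts compared per sorted cell it shifted to -1.15, with 380 higher and 5162 lower. That comparison does not correct for library depth. Every Trpm7 cKO library was shallower, so depth and RNA per cell cannot be told apart in it. Under both scalings Meg3 and Rian were higher and H19, Grb10 and Peg3 lower. The log2 fold change of Meg3 was 2.75 with MuSC marker scaling and 1.88 per sorted cell, and that of Rian was 1.67 and 0.93. That of H19 was -3.25 and -3.77. A fit with the leukocyte marker score as a covariate left none of the 8 members past the threshold, although not every fold change shrank. H19 was at -0.999 (adjusted p = 0.365), Meg3 at 2.00 (adjusted p = 0.324) and Rian at 1.76 (adjusted p = 0.310). Grb10 was at -0.21 (adjusted p = 0.833) and Peg3 at -0.13 (adjusted p = 0.906), while Plagl1 was at 2.30 (adjusted p = 0.0509) and Ndn to 1.07 (adjusted p = 0.527). In that fit 385 genes were higher and 134 lower in all, and the summed level of the markers did not overlap between genotypes, so the leukocyte signal and the genotype cannot be told apart.

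**Figure D5:**
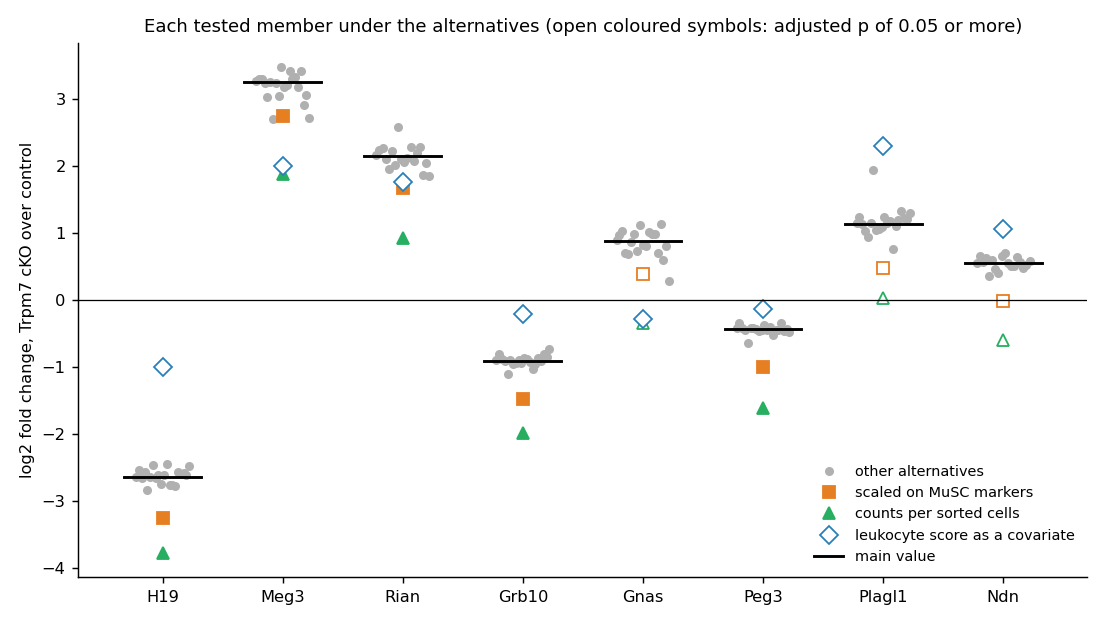
Log2 fold change of Trpm7 cKO over control (y axis) of the 8 tested members under each alternative; black lines are the values of the report, coloured symbols the MuSC marker scaling, counts per sorted cell and the leukocyte covariate (open where the adjusted p was 0.05 or more) and grey points the other alternatives. Meg3 and Rian stay above 0 and H19, Grb10 and Peg3 below 0 under every alternative drawn, and Gnas and Ndn lie on both sides of 0.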

How the data were processed

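Libraries were made with CEL-Seq2 from 3000 sorted cells each, 5 per genotype, and sequenced on a NovaSeq. The authors' deposited table holds raw counts of unique molecular identifiers per gene. The submitters' processing notes name UMI-tools 1.1.4, Trim Galore 0.6.10, HISAT2 2.2.1, featureCounts 2.0.6, DESeq2 1.30.1 and GRCm38. The setting for strand is not given in the sources used here. Of entries that share a symbol, only the one with the larger total was kept (24620 entries, 24608 symbols). Genes were filtered with filterByExpr (minimum count 10, total 15), scaled by TMM and tested with the quasi-likelihood test of edgeR 4.0.16 in R 4.3.3, genotype as the only term, Benjamini-Hochberg adjusted over 7753 genes. DESeq2 1.42.0 and limma 3.58.1 were alternatives. The script was tested on simulated counts. Members removed by the filter got an exact permutation test of mean CPM. Annotation was GENCODE vM21. Named beside the members were other imprinted genes past both thresholds, the 5 most abundant tested of each class, the 3 imprint maintenance genes with the lowest adjusted p, and the 2 nearest profiles of each tested member, of which 2 genes are not reported here. Members and lists were chosen with earlier results of these data known. The labels do not say which mouse a library came from, so p-values measure the spread between these libraries.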

Additional observations from a re-analysis of the deposited data

Results flagged for a closer look

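A library that stood apart from the 4 others of its genotype was looked for in the CPM of each member, over 20 groups of 5 libraries, of which chance alone gives about 1. It was found 2 times, both for Rian. Control replicate 2 had 24.8 CPM of Rian, where the other control libraries had 6.96 to 10.7. Trpm7 cKO replicate 5 had 132 CPM, where the others had 36.5 to 62.6. Without the control library the log2 fold change of Rian was 2.58 (adjusted p = 1.67e-05), and without the Trpm7 cKO library it was 1.86 (adjusted p = 7.89e-05). Trpm7 cKO replicate 5 is the shallowest library, with 24 counts of Rian behind the value.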

How the results depend on the processing

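The count of members higher in Trpm7 cKO (3) and the count lower (3) both became 0 with the leukocyte covariate, as did the count past both thresholds (3). Without the filter on low counts the last was 5, since Dlk1 and Mest were then tested. Leaving out 1 library at a time gave 3 to 4 higher, 2 to 4 lower and 3 to 4 past both. Gnas changed sign to -0.35 per sorted cell and -0.28 with the leukocyte covariate, and Ndn to -0.0095 with MuSC marker scaling and -0.59 per sorted cell; the cause was not tested. Gnas passed with total counts alone (0.97, adjusted p = 0.0420), DESeq2 (1.04, 0.0352), without control replicate 2 (1.12, 0.0343), without Trpm7 cKO replicate 4 (1.13, 0.0144) and with Trpm7 cKO replicates 4 and 5 summed (0.81, 0.0403). Those 2 libraries share a number in the labels whose meaning is not stated. Over the 10 leave-one-out fits H19 ranged from -2.77 to -2.45, Meg3 from 2.92 to 3.48, Rian from 1.86 to 2.58, Grb10 from -1.03 to -0.80 and Plagl1 from 0.76 to 1.33, each past the threshold in all 10. Peg3 was -0.41 with counts thinned to the smallest library (adjusted p = 0.155), where Rian, Gnas and Ndn had too few counts to be tested. Same-numbered control and Trpm7 cKO libraries did not deviate together (correlations of their deviations from -0.118 to 0.181). These correlations cannot settle whether the numbers pair the libraries, and the labels do not say. With the replicate number as a block, 4 members were higher, with Gnas at 0.99 (adjusted p = 0.0206), and 3 lower. With the 2 shallowest libraries left out, 3 were higher and 4 lower, including Mest at -2.82. Depth limits Dlk1, Mest, Rian, Gnas and Ndn most, with 36 counts or fewer in every library.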
